A study of Mus musculus with 6 samples.

Results

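Fetub and Itih2 were lower, and Has2 was higher, in MS5 stromal cells grown with a MEK inhibitor than with its diluent, in each of 3 experiments. They belong to a set of 10 genes that encode the fetuins (Fetub and Ahsg), the inter-alpha-trypsin inhibitor heavy chains (Itih1, Itih2, Itih3, Itih4 and Itih5), their light chain bikunin (Ambp), and partners of these proteins in the hyaluronan matrix (Has2 and Tnfaip6). The genes were chosen by name, out of 19938 named genes on the array, after earlier results of these arrays were known. Fetub was also among the genes the study drew as lower with the inhibitor. The differences between inhibitor and diluent are therefore given for these 10 genes as a description, without a test. Each gene had 1 probe set that named it alone, so all 10 were measured.

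MS5 is a mouse bone marrow stromal cell line. It was grown in alpha-MEM with fetal bovine serum, and PD184352, an inhibitor of the kinase MEK, was present for 7 days at 1 μM (MEKi); control cultures received the diluent DMSO. Each of 3 independent experiments gave 1 MEKi and 1 diluent culture, and the total RNA of each of the 6 cultures was hybridized to 1 Affymetrix mouse Gene 1.0 ST array. The deposited values are log2 intensities normalized by the robust multichip algorithm (RMA), and they are used unchanged below, with the number of arrays limiting the precision. The values come from 1 cell line, and an array of a whole culture cannot tell fewer expressing cells from less RNA per cell.

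Fetuins are secreted proteins of the cystatin superfamily. Fetuin-A, encoded by Ahsg, binds calcium phosphate and restrains calcification of soft tissues, while fetuin-B inhibits some astacin proteases, among them the egg protease ovastacin. The heavy chains are joined through a chondroitin sulphate chain to bikunin, a Kunitz protease inhibitor, and the product of Tnfaip6, TSG-6, can move them onto hyaluronan, the matrix polymer that the HAS2 synthase makes. Most of these proteins reach the blood from the liver, and hyaluronan coats with bound heavy chains are known from the matrix around the ovulated egg.

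Upstream windows are printed for Fetub and Itih2, the genes furthest below diluent with MEKi, and for Tnfaip6, which shared a motif with Itih2. They hold the 250 bases before an annotated start, 5′ to 3′ on the gene's strand, from RefSeq on GRCm38.p6, and capitals mark matches to the motifs searched. RefSeq lists 2 starts for Fetub; the first window is chr16:22918132-22918381 and the second chr16:22919972-22920221, both on the plus strand. The Itih2 window is chr2:10130684-10130933 on the minus strand and the Tnfaip6 window chr2:52037863-52038112 on the plus strand.
Fetub, first start: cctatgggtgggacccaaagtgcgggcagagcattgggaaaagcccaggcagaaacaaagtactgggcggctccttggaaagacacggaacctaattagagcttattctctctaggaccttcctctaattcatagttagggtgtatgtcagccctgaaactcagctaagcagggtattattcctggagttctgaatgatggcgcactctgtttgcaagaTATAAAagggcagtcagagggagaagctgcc
Fetub, second start: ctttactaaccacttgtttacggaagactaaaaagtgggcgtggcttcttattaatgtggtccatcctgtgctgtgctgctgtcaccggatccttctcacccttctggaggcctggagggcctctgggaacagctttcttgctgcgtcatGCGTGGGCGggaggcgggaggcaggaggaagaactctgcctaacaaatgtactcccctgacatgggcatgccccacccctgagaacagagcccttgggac
Itih2: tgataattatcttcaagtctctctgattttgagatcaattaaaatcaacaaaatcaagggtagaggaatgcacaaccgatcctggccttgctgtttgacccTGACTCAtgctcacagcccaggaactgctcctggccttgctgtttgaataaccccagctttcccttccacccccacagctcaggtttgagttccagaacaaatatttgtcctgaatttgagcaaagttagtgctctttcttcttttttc
Tnfaip6: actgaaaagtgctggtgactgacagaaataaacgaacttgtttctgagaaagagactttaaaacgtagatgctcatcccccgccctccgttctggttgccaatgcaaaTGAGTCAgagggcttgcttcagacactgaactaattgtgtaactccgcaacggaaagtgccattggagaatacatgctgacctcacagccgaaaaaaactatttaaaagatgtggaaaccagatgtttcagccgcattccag

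Both strands were searched for binding motifs of factors known to act downstream of ERK, and for the TATA box. These were the AP-1 motif TGANTCA, the ETS motif CCGGAAG, the EGR motif GCGTGGGCG, the CRE TGACGTCA, the CArG box, and TATAAA. The table held windows for 9 of the 10 genes, 10 windows in all. AP-1 matches stood in the windows of Itih2, 149 to 143 bases before the start, and of Tnfaip6, 142 to 136 bases before it. Because the AP-1 motif reads the same on both strands, each was counted once. An AP-1 match was present in 6.75% of all 32851 windows of this length. The second Fetub window held the EGR motif, 100 to 92 bases before the start, which was found in 0.536% of windows, and the first held TATAAA 31 to 26 bases before the start, found in 12.4%. None of the ETS motif (6.91% of all windows), the CRE (1.55%) or the CArG box (1.47%) was found in the 10 windows, which says only that these letters are not there. EGR and AP-1 matches are descriptions of sequence, and binding was not measured.

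Fetub, which encodes fetuin-B, had log2 values of 5.91, 5.21 and 5.96 in the MEKi cultures of experiments 1, 2 and 3, against 6.75, 6.23 and 6.99 in the diluent cultures. The groups did not overlap, since the highest MEKi culture lay below the lowest diluent culture. Fetub averaged 5.69 ± 0.42 with MEKi and 6.65 ± 0.39 with diluent (SD, n = 3 each). Most of that spread was shared by the cultures of an experiment, both cultures of experiment 2 being the lowest of their group. The differences within experiments were −0.84, −1.02 and −1.03, which gave a log2 fold change of −0.96 (standard error 0.079), or 0.51 of the diluent level. Standard errors of log2 fold changes, here and below, are limma's, which draw on the spread of all probe sets as well as of the gene. They therefore do not follow from the 3 differences alone.

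Ahsg, the gene of fetuin-A and the neighbour of Fetub on chromosome 16, had log2 values of 5.07, 5.09 and 4.97 with MEKi, against 4.96, 4.91 and 4.88 with diluent. All 3 MEKi cultures lay above all diluent cultures, but by little, the log2 fold change being 0.12 with a standard error of 0.073. The 2 fetuin genes thus had differences of opposite sign in every experiment. Ahsg lay below the median probe set, however, and 23.8% of all probe sets were higher with MEKi in every experiment.

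**Figure D1:**
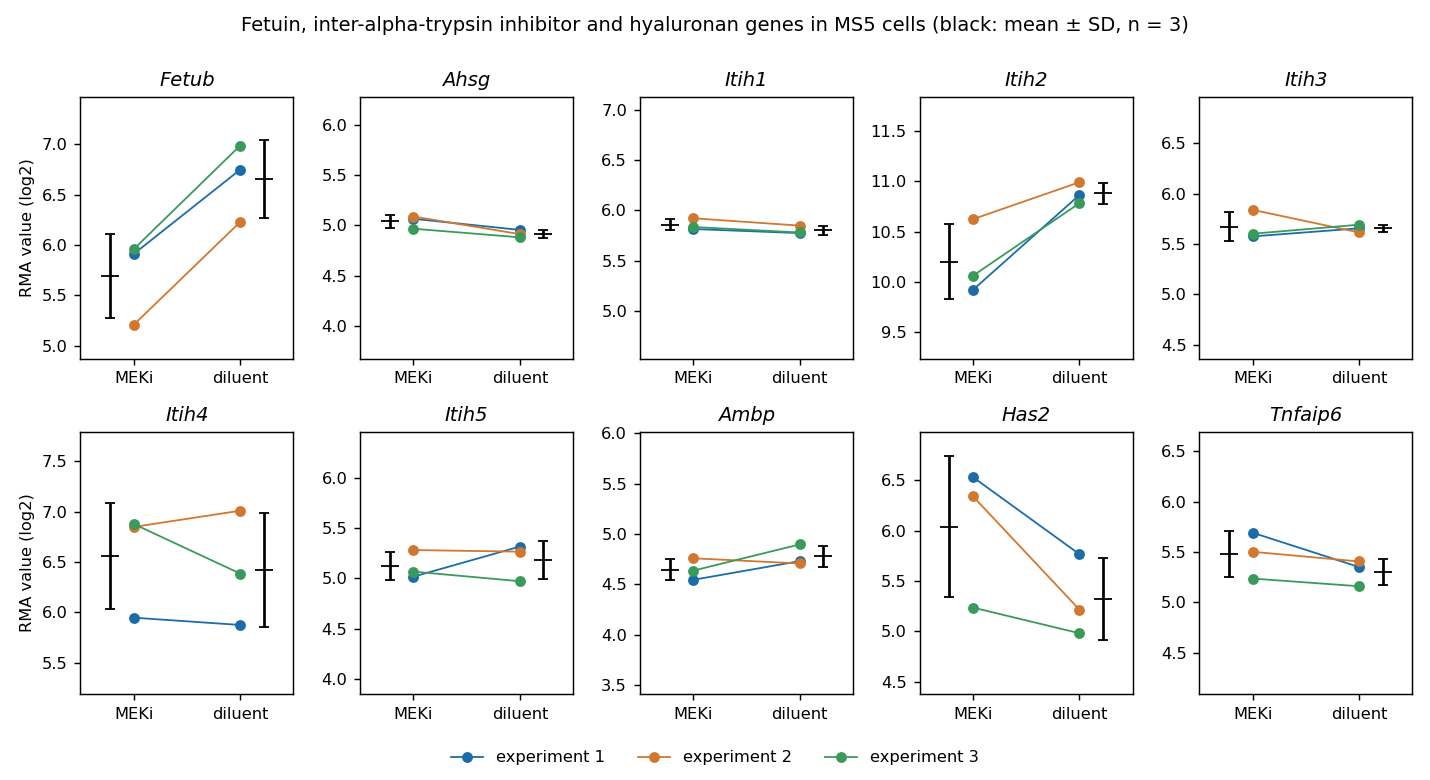
RMA values on the log2 scale (y axis, each panel spanning the same range) of the 10 genes in MEKi and diluent cultures (x axis); coloured points are cultures, lines connect cultures of the same experiment, and black bars are the mean ± SD of 3 cultures. The 3 lines of Fetub and of Itih2 climb toward diluent and those of Has2 climb toward MEKi, while single lines of the other 7 genes run between a fall of 0.30 (Itih5, experiment 1) and a rise of 0.49 (Itih4, experiment 3) toward MEKi.

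Among the heavy chains, Itih2 differed most. Its log2 values were 9.92, 10.62 and 10.06 with MEKi, against 10.86, 10.99 and 10.78 with diluent. Again the groups did not overlap, and the diluent cultures lay close together (10.88 ± 0.10) while the MEKi cultures were spread (10.20 ± 0.37; SD, n = 3 each). The differences of −0.94, −0.37 and −0.72 gave a log2 fold change of −0.68 (standard error 0.114), or 0.63 of the diluent level. Experiment 2 had the smallest difference in Itih2 and nearly the largest in Fetub. Of the 10 genes, Itih2 and Itih4 were the 2 whose mean over the arrays was at or above the median probe set of the array, and the other 8, Fetub included, lay below it.

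Itih4, a heavy chain of the acute phase response that is not joined to bikunin, had log2 values of 5.95, 6.85 and 6.88 with MEKi, against 5.87, 7.01 and 6.38 with diluent. Here the cultures of experiment 1 were low in both groups, and the differences within experiments changed sign (0.07, −0.16 and 0.49; log2 fold change 0.13, standard error 0.124). Itih1, Itih3 and Itih5 had log2 fold changes of 0.06, 0.02 and −0.06, with standard errors of 0.072, 0.090 and 0.096. The 3 differences of Itih1 were all above 0, at 0.04 to 0.07, while those of Itih3 and Itih5 had mixed signs. Ambp, the gene of bikunin, was at 4.65 ± 0.11 with MEKi and 4.78 ± 0.10 with diluent (SD, n = 3 each), a log2 fold change of −0.13 (standard error 0.087). Its differences were −0.19, 0.05 and −0.26, so that the light chain gene had no direction common to all experiments.

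Has2, which encodes a hyaluronan synthase of the plasma membrane, had log2 values of 6.53, 6.34 and 5.24 with MEKi, against 5.77, 5.22 and 4.98 with diluent. Each MEKi culture lay above its own diluent culture, yet the groups overlapped, because the MEKi culture of experiment 3 was below the diluent culture of experiment 1. Differences of 0.77, 1.13 and 0.26 (SD 0.44) gave a log2 fold change of 0.72, or 1.64 times the diluent level. Limma's standard error was 0.151. The value was 0.51 without experiment 2 and 0.95 without experiment 3.
Tnfaip6, the gene of TSG-6, had log2 values of 5.69, 5.50 and 5.24 with MEKi, against 5.35, 5.41 and 5.16 with diluent. Its differences of 0.34, 0.10 and 0.08 were all positive, and the log2 fold change was 0.17 (standard error 0.085). As in Has2, the cultures of experiment 3 were the lowest of each group.

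**Figure D2:**
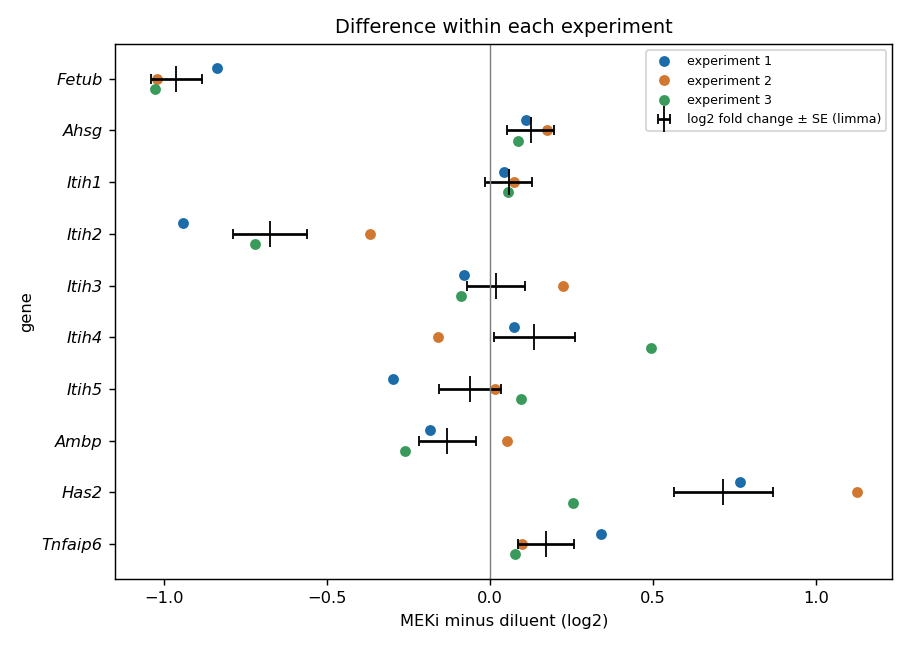
Difference in log2 value, MEKi minus diluent (x axis), of the 10 genes (y axis); each colour is 1 of the 3 experiments, and black crosses with bars show the fitted log2 fold change ± its standard error (limma). Fetub (−0.96) and Itih2 (−0.68) lie left of 0 and Has2 (0.72) right of 0 in all 3 experiments, with Ahsg, Itih1 and Tnfaip6 also right of it in all 3 but closer to it. The fitted values of the other 7 genes lie between −0.13 and 0.17 and their single experiments between −0.30 and 0.49.

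Across the set, 2 genes were lower and 4 higher in all 3 experiments and 4 had mixed signs, while over all probe sets 7.98% were lower and 23.8% higher in every experiment. The groups did not overlap for 3 of the 10 (Fetub, Itih2 and Ahsg), against 7.86% of all probe sets. The median log2 fold change was 0.04 for the 10 genes and 0.04 for all named genes. Since the genes were chosen with this contrast known, these counts are no evidence about the set. Over the whole array, 46 of 28853 probe sets (0.159%) had an adjusted p below 0.05 in limma, with the experiment as a block and Benjamini-Hochberg adjustment over all of them, and 9.89% had an unadjusted p below 0.05.

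How the genes varied between experiments, whatever the treatment, was not used in choosing them and could be tested. The error of that test, however, comes from the spread of the differences within experiments, which were known when the genes were chosen. Its p-values are therefore not fully free of that choice. Fetub, Itih4 and Has2 differed between the 3 experiments at an adjusted p below 0.05 in limma's moderated F test, and the other 7 genes did not pass. Over all probe sets, 7.69% passed. The mean of both cultures of Fetub was 6.33, 5.72 and 6.47 in experiments 1, 2 and 3 (adjusted p = 0.0103), experiment 2 being the low one. For Itih4 the means were 5.91, 6.93 and 6.63 (adjusted p = 0.0201), and experiment 1 was low. For Has2 they were 6.15, 5.78 and 5.11 (adjusted p = 0.037), with experiment 3 lowest. The gap between the highest and lowest experiment was thus 0.75 for Fetub, 1.02 for Itih4 and 1.04 for Has2, on the log2 scale. For Itih4 and Has2 it exceeded the log2 fold change between MEKi and diluent. A range of 3 means and a mean of 3 differences are unlike measures, however. For Has2 the difference within experiment 2, at 1.13, was larger than the gap.
Among the other 7 genes the gap was 0.09 to 0.41, the largest being that of Itih2, with adjusted p-values of 0.164 to 0.782 in limma's F test. With 1 experiment left out, which also left fewer degrees of freedom, limma gave other calls. Fetub did not pass without experiment 2 (adjusted p = 0.413), where 8.13% of all probe sets did. Without experiment 1, where 0.641% of all probe sets passed, Itih4 (adjusted p = 0.543) and Has2 (0.217) did not. Has2 also did not pass without experiment 3 (adjusted p = 0.11), where 8.25% of all probe sets did. The labels do not separate culture, labelling and hybridization within an experiment, so that these sources cannot be told apart.

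The fetuin and heavy chain genes lie in neighbouring groups in the RefSeq gene table of GRCm38.p6. Ahsg and Fetub are next to each other on chromosome 16, Itih4, Itih3 and Itih1 on chromosome 14, and Itih2 and Itih5 on chromosome 2. Between MEKi and diluent, Fetub was at −0.96 and Ahsg at 0.12, and Itih2 at −0.68 and Itih5 at −0.06 on the log2 scale. The chromosome 14 genes were near each other, Itih4 at 0.13, Itih3 at 0.02 and Itih1 at 0.06, with standard errors of 0.072 to 0.124. To see whether other nearby genes moved, the 3 measured protein-coding genes on each side of Fetub, Itih2 and Has2 were read, a comparison chosen after the values of these 3 genes were seen. Over all probe sets, 0.159% passed at an adjusted p below 0.05 from limma, and none of the 16 neighbours outside the set did (smallest 0.253). Around Itih2 they ran from −0.05 to 0.20, and around Has2 from −0.05 to 0.18. Around Fetub, Tbccd1, Dnajb11 and Hrg, the gene of histidine-rich glycoprotein, lay between 0.04 and 0.14.
Beyond Hrg stood the kininogen genes Kng2 and Kng1, which encode cystatin-domain precursors of bradykinin. Kng2 was at 8.12 ± 0.44 with MEKi and 8.70 ± 0.29 with diluent (SD, n = 3 each), or −0.58 on the log2 scale (standard error 0.140, limma's adjusted p = 0.253). Its differences were −1.03, −0.36 and −0.34, so that experiment 1 held the largest. Kng1 was at −0.56 (standard error 0.197, limma's adjusted p = 0.413), its differences being −1.25, −0.24 and −0.19. These 2 genes are close copies of each other, and whether their probes separate them was not tested.

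**Figure D3:**
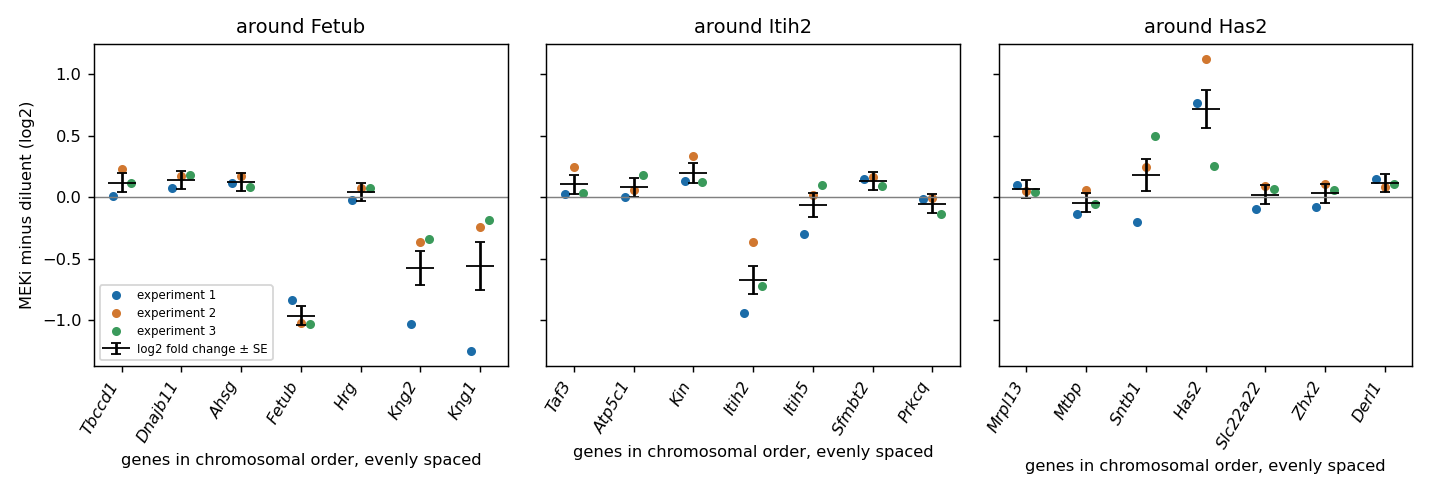
Difference in log2 value, MEKi minus diluent (y axis), of Fetub, Itih2 and Has2 and of the 3 measured protein-coding genes on each side in chromosomal order (x axis, evenly spaced, not to scale); each colour is 1 of the 3 experiments, and black bars show the fitted log2 fold change ± its standard error. The fitted values of the neighbours of Itih2 and Has2 lie between −0.06 and 0.20, with single experiments between −0.30 (Itih5) and 0.50 (Sntb1), while Kng2 (−0.58) and Kng1 (−0.56) lie below 0 near Fetub.

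Genes of the same pathways were read from 5 lists drawn up by function. None of their genes passed at an adjusted p below 0.05 from limma over all probe sets, in the blocked fit or in any of 12 alternatives per list. Over the whole array, only 0.159% of probe sets passed in the blocked fit. With no block, a random block, arrays centred on their medians or experiment 2 left out, 0 did, so empty lists there were fixed in advance. The counts of list genes at an unadjusted p below 0.05 stand beside 9.89% of all probe sets. Of 18 measured genes that make or degrade hyaluronan, 0 passed in either direction and 1 had an unadjusted p below 0.05 (median log2 fold change 0.005). The largest values were those of Gusb, a lysosomal glucuronidase (0.25, standard error 0.084), Ugdh, which makes the UDP-glucuronate that hyaluronan is built from (−0.19, 0.090), and Gnpnat1, of the UDP-N-acetylglucosamine pathway (0.15, 0.081). The other synthase genes, Has1 and Has3, were at −0.06 (standard error 0.079) and 0.06 (0.089), against 0.72 for Has2. Both lay below the median probe set, as Has2 did. Has1 had a mean of 5.34 with MEKi and 5.40 with diluent, and Has3 of 4.88 and 4.82.
Of 16 hyaluronan receptors and binding proteins, 0 passed and 2 had an unadjusted p below 0.05 (median 0.07). Of these 16, 5 were higher and 3 lower in all 3 experiments, against 23.8% and 7.98% of all probe sets. Cd44, the main cell surface receptor for hyaluronan, was at 7.32 with MEKi and 7.57 with diluent. Its difference was −0.25 (standard error 0.074, limma's adjusted p = 0.35), and it was among the 3 lower in every experiment (−0.31, −0.24 and −0.20). Layn, the receptor layilin, was at −0.25 (standard error 0.096) and Hmmr, a hyaluronan-binding protein of the mitotic spindle, at 0.24 (0.120).
Of 16 measured genes of the cystatin superfamily, to which fetuins belong, 0 passed and 3 had an unadjusted p below 0.05 (median 0.003). These were Kng2, Kng1 and Cst6, the gene of cystatin M, at −0.40 (standard error 0.104, limma's adjusted p = 0.282). Cst3, the gene of cystatin C, was at 0.01 (standard error 0.072).
Of 6 astacin proteases, the family to which ovastacin belongs, 0 passed and 1 had an unadjusted p below 0.05 (median 0.05). Fetuin-B is not known to inhibit all of them. Bmp1, which trims procollagen, was at 11.93 with MEKi and 11.74 with diluent, a log2 fold change of 0.19 (standard error 0.074). Astl, the gene of ovastacin, had a log2 fold change of 0.17 (0.083) and Mep1b, a meprin, one of 0.06 (0.080). Bmp1 was the only 1 of the 6 at or above the median probe set. Astl was at 4.64 with MEKi and 4.47 with diluent, and Mep1b at 4.58 and 4.51. Of 13 Kunitz inhibitors, related to bikunin, 0 passed and 0 had an unadjusted p below 0.05 (median 0.05). The largest were Spint3 and Spint2, both at 0.13, and Tfpi, an inhibitor of tissue factor, at 0.11.

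**Figure D4:**
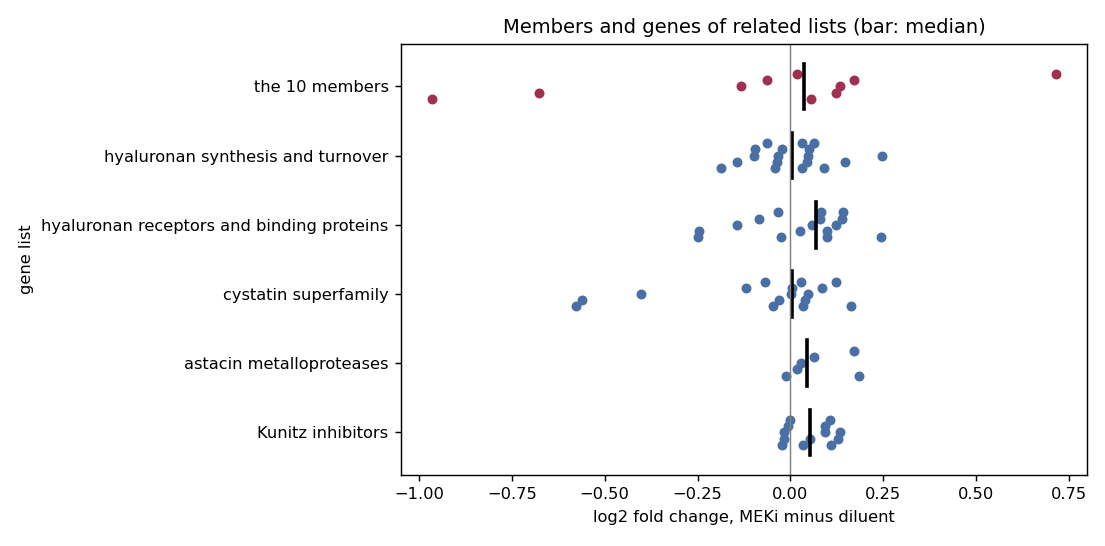
Log2 fold change of MEKi minus diluent (x axis) for the 10 genes and for the genes of 5 related lists (y axis); each point is a gene and each black bar the median of its list. The medians lie between 0.003 and 0.07, and the lowest points belong to Fetub (−0.96) and Itih2 (−0.68).

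Since fetuins, heavy chains and bikunin are best known from liver, markers of other cell types were read too. Of 10 measured hepatocyte markers, 2 (Apoa1 and Hpx) were at or above the median probe set, and Alb, the gene of albumin, was at 4.67 ± 0.17 with MEKi and 4.56 ± 0.06 with diluent (SD, n = 3 each). The mean of the 10 ran from 5.39 to 5.52 in MEKi cultures, against 5.34 to 5.35 in diluent cultures. The median log2 fold change of these hepatocyte markers was 0.10, against 0.04 for all named genes. That was not particular to them, since the median of the endothelial markers was 0.12. Stromal fibroblast markers had a median of 0.03, and macrophage and leukocyte markers one of −0.05. Of 8 stromal fibroblast markers, 7 were at or above the median, the exception being Thy1, and their mean was 10.18 to 10.50 with MEKi and 10.22 to 10.44 with diluent. The endothelial markers, 5 in all, were below the median, and 2 of 6 macrophage and leukocyte markers were at or above it. None of these markers passed at an adjusted p below 0.05 in limma, where 0.159% of all probe sets did. An unadjusted p below 0.05 was found for 2 stromal, 2 macrophage and leukocyte, 0 hepatocyte and 0 endothelial markers, against 9.89% of all probe sets. Of the markers with an unadjusted p below 0.05 in limma, Vcam1 and Cd68 were lower in all 3 experiments, like Fetub and Itih2. The stromal marker Vcam1, an adhesion molecule, was at 9.33 ± 0.16 with MEKi and 9.90 ± 0.15 with diluent (SD, n = 3 each). Its log2 fold change was −0.57 (standard error 0.084, limma's adjusted p = 0.0942), and its groups did not overlap. The groups of the macrophage marker Cd68 did (−0.61, standard error 0.144, limma's adjusted p = 0.249). The others, Cxcl12, a stromal chemokine (0.22, standard error 0.084), and Cd14, a receptor for lipopolysaccharide (0.25, 0.078), were higher in all 3. At a larger p, Csf1r was also lower in all 3, and Ttr, Tf, Kdr and Emcn were higher. Over all probe sets, 7.98% were lower and 23.8% higher in every experiment. The part of these markers in the differences of the 10 genes was not tested.

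The genes whose values were most like those of Fetub over the 6 arrays were Tpsab1 (Pearson's r = 0.976), Cetn4 (0.973), Klf5 (0.971), Kcnn4 (0.968) and Fosl1 (0.964). Their log2 fold changes were −1.10, −0.30, −0.47, −0.73 and −0.81, so that all 5 were lower with MEKi. Most like Has2 were Emb (r = 0.993), Abcb11 (0.984), Tgfb2 (0.976), Muc13 (0.976) and Tbl1xr1 (0.974), with log2 fold changes between 0.26 and 0.52. These correlations were chosen as the highest among all named genes with a range of at least 0.5 on the log2 scale, and the arrays share both treatment and experiment, so they describe likeness only.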

How the data were processed

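RMA was run by the authors on Affymetrix mouse Gene 1.0 ST arrays, and they deposited log2 values of 28853 probe sets, 1 array per culture; RMA and Partek are named without versions, and no genome build is given in the sources used here. The values were used as deposited, with no filter. RMA pulls low differences toward 0. Of the probe sets, 21789 name 1 gene in the platform table, 1621 several and 5443 none; a gene of a related list was taken at its probe set with the highest mean. Treatment and experiment were terms of 1 linear model per probe set, fitted by limma 3.58.1 in R 4.3.3 (lmFit, eBayes), with Benjamini-Hochberg adjustment over all probe sets and a threshold of 0.05. The experiment term was tested by the moderated F test of the same fit. The fit left 2 residual degrees of freedom, to which the prior added 5.17.

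The study ran 1 culture of each condition per experiment. Deviations from the group means correlated by 0.81, 0.59 and 0.62 within experiments, against −0.61 to 0.21 for other pairs, across probe sets, which are not independent. Since the deviations of each group cancel out, high values within experiments force low ones for the other pairs, which are therefore no separate baseline. The genes and the lists were chosen with earlier results of these data known, and the related lists by function. The genes named are all 10, the 3 largest of each list when none passed, and the 5 most like Fetub and like Has2, the other gene with the largest change; Has1, Has3, Cst3, the neighbours and the markers were chosen once their values had been seen. Alternatives were a fit without the block, a random block, quantile normalization, centring, brighter probe sets, probe sets naming 1 gene, array weights, a robust prior with an intensity trend, averaging of probe sets within genes, and each replicate left out. Plots used matplotlib 3.10.9 (Python 3.11.15).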

Additional observations from a re-analysis of the deposited data

How the results depend on the processing

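The 46 probe sets past the threshold (30 higher and 16 lower) became 0 with no replicate block (907 at an unadjusted p below 0.05 in limma), 0 with a random block (2321) and 0 with the arrays centred on their medians (2780). They became 15 after a further quantile normalization (4 higher and 11 lower), 25 among brighter probe sets, where only 2 of the 10 genes were tested, and 115 with an intensity trend and a robust prior. Leaving out 1 replicate gave 0 to 37, the 0 being without experiment 2 (3063 at an unadjusted p below 0.05 in limma), with 14 without experiment 1. The cause was not tested. Probe sets that differed between experiments, 2218 in the blocked fit, numbered 3564 with the trend and 185 to 2379 with a replicate left out, the 185 being without experiment 1. Of the 10 genes, 3 differed between experiments; 1 of 2 tested did among brighter probe sets, and 1 to 2 did with a replicate left out. The log2 fold changes of Fetub (−1.03 to −0.93), Itih2 (−0.83 to −0.54), Has2 (0.51 to 0.95), Ahsg (0.09 to 0.14), Itih1 (0.02 to 0.06), Tnfaip6 (0.09 to 0.22) and Ambp (−0.22 to −0.07) kept their sign in every alternative that tested them, while those of Itih3 (−0.09 to 0.07), Itih4 (−0.04 to 0.28) and Itih5 (−0.14 to 0.06) did not.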
